A study of Mus musculus with 16 samples.

Results

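Genes whose damaging variants cause autism or intellectual disability were followed in GAD67-GFP+ cells captured by laser from the embryonic mouse cortex, labelled as GABAergic progenitors, in offspring of dams given an insecticide, restrained, given both exposures or left with the vehicle. The 36 genes are a list of chromatin, synaptic and signalling genes, and each was found by its symbol in the deposited table of 24539 genes. All 36 passed the filter on low counts, which left 13224 genes for the tests, so no member was lost. The rule used the symbols and no measured value, but the list was chosen with earlier results of these data known.

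The genes were read in 16 libraries of 4 groups with 4 embryos each. In the cypermethrin group, CD1 dams were gavaged with alpha-cypermethrin at 10 mg/kg on gestational days 11 to 14 and were not stressed. Alpha-cypermethrin is a pyrethroid, an insecticide class that holds sodium channels of nerve cells open. In the stress group, dams received corn oil and were restrained under bright light in 3 sessions of 45 min on days 12 and 13, with a final round on day 14 that ended 15 min before euthanasia. The group with both exposures received cypermethrin and restraint, and the vehicle group received corn oil alone. All dams had their final gavage 90 min ahead of euthanasia. All embryos carried the GAD67-GFP reporter on the CD1 background, were labelled male and were taken at embryonic day 14.5, 1 per litter, so each library stands for a separate litter. Cells with GFP were cut by laser from the cortical plate of fixed sections, about 1000 per embryo, which makes each library a pool picked by a reporter for Gad1 expression.

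Many of these genes act on chromatin. Remodelling enzymes slide or eject nucleosomes, SET-domain methyltransferases write marks at promoters and gene bodies, and readers and adaptors bring them to their sites. Others build synapses and axons, or set signalling and protein turnover through kinases, the TSC complex, beta-catenin and ubiquitin ligases. Loss of a single copy is enough to cause disease for many of them.

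The total count per library ran from 2291283 to 4324129, and 12153 to 16536 genes had at least 1 count. All 15 listed genes of cortical interneurons were detected and tested, and their summed level ran from 1830 to 2864 CPM (counts scaled to the TMM-adjusted library size). Gad2 had 271 ± 82.0, Lhx6 280 ± 54.9 and Gad1 70.0 ± 29.7 CPM (SD, n = 16). Markers of other cell types were detected as well, and they go against a pure GABAergic population. Per kb of exon, the glutamatergic genes Neurod6 and Tbr1 averaged 616 and 166 CPM, beside 46.1 for Gad2 and 9.16 for Gad1. The 11 listed genes of glutamatergic neurons summed to 4499 to 7574 CPM, above the interneuron sum in every library, those of pericytes and meningeal fibroblasts to 1378 to 4036 CPM, and those of radial glia and progenitors to 853 to 1270 CPM. The levels below therefore belong to the pool, and in such bulk samples fewer cells of a type and less RNA per cell cannot be told apart. Replicate 1 of the stress group went against its label, with 4528 CPM of Xist and 0.476 CPM over 4 genes of the Y chromosome (Uty, Ddx3y, Eif2s3y and Kdm5d), where the other 15 libraries had at most 8.14 CPM of Xist and at least 198 CPM of those genes. It also had the fewest genes detected, 12153. Log2 differences of named genes that move by over 1.5 times without it are given both ways. The library descriptions carry 1 of 2 codes, A in 7 libraries and B in 9, whose meaning is not stated; code A holds 1 library of the cypermethrin group and 2 of each other group.

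The promoters of 4 members that the results turn on are shown with that of Mef2c, which shares the lowest number of CG pairs among the members with Setd5, because they span much of the range in base composition. The sequences are from RefSeq on build GRCm38.p6, whose coordinates are those of mm10, from 250 bases before to 50 after the start, read 5′ to 3′ on the gene's strand, with each CG pair in capitals. Kmt2a lies at chr9:44881240-44881539 on the minus strand, Kmt2c at chr5:25498734-25499033 on the minus strand, Cntnap2 at chr6:45059811-45060110 on the plus strand, Shank3 at chr15:89499358-89499657 on the plus strand and Mef2c at chr13:83503784-83504083 on the plus strand.
Kmt2a: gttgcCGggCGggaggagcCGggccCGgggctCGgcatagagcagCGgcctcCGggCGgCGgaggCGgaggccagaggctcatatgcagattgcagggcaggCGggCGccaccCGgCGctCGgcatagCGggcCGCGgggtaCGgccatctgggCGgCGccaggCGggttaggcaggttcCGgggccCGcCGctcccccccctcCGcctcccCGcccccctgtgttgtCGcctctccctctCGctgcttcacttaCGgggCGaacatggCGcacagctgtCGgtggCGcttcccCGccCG
Kmt2c: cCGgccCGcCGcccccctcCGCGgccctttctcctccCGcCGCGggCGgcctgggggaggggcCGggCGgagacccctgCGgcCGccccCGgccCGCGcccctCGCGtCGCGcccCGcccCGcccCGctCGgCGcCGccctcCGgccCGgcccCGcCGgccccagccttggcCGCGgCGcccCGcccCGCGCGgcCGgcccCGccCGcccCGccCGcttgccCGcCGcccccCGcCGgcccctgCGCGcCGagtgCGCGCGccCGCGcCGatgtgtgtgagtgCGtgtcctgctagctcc
Cntnap2: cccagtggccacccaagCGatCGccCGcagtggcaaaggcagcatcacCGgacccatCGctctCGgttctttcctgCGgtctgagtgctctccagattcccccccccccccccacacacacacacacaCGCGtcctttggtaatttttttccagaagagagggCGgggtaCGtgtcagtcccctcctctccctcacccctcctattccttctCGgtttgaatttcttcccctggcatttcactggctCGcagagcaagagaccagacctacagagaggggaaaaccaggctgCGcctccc
Shank3: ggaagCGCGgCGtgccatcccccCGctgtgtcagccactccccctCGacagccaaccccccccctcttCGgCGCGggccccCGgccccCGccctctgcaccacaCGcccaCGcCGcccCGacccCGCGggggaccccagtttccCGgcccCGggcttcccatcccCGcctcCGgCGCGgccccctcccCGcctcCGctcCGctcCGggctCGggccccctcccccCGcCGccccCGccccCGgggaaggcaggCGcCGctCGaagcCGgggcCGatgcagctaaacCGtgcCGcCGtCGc
Mef2c: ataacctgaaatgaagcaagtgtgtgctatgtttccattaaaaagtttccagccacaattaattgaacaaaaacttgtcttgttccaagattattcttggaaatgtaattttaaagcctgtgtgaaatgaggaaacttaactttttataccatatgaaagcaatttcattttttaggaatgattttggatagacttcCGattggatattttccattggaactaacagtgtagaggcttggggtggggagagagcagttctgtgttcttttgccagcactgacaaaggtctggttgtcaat

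The window of Kmt2c held 56 CG pairs and that of Shank3 40, followed by 36 in Kmt2a, 14 in Cntnap2 and 1 in Mef2c. A promoter was found in RefSeq's table for 25 members, with the start nearest the gene's 5′ end in RefSeq where a gene has several. They held a median of 29 CG pairs and 69.3% G and C, beside 21 pairs and 61.3% over 10172 tested genes with a promoter. A ratio of observed to chance CG pairs above 0.6 was found in 19 of the 25 (76.0%) and in 72.8% of all these genes. On either strand, the glucocorticoid receptor half-site AGAACA occurred in 3 of 25 windows (12.0%: Chd8, Dscam and Mef2c) and in 12.2% of all. The palindromic cAMP response element TGACGTCA occurred in 0 of 25 and in 3.34% of all, and the palindromic E-box CACGTG in 0 of 25 and in 10.1%. A match describes letters only, and none of these motifs contains another.

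The members shared a large size. Their median genomic span in GENCODE vM21 was 129221 bp, beside 26029 bp over the 12926 tested genes with an entry. The span passed 100000 bp in 23 of 36 members (63.9%), beside 16.2% of tested genes. The longest was Cntnap2, on chromosome 6 from 45059357 to 47304213 in mm10, a neurexin-family adhesion gene of 2244857 bp, and the shortest was Adnp, on chromosome 2 from 168180986 to 168207112, with 26127 bp. The median coding length was 4563 bp among members and 1467 bp among tested genes with a coding sequence. All 36 are annotated as protein coding.

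As a set the members were well expressed. Counts of the 36 genes made up 1.43 ± 0.155% of all counts in the cypermethrin group, 1.51 ± 0.0567% in the stress group, 1.48 ± 0.0422% with both exposures and 1.47 ± 0.0795% in the vehicle group (SD, n = 4 each), and the 4 groups overlapped. Divided by the length of exon in kb, the members had a median of 22.4 CPM per kb, beside 6.16 over all tested genes. Of the 36, 32 lay above the median of all tested genes on this scale and 23 above its 75th percentile.

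**Figure D1:**
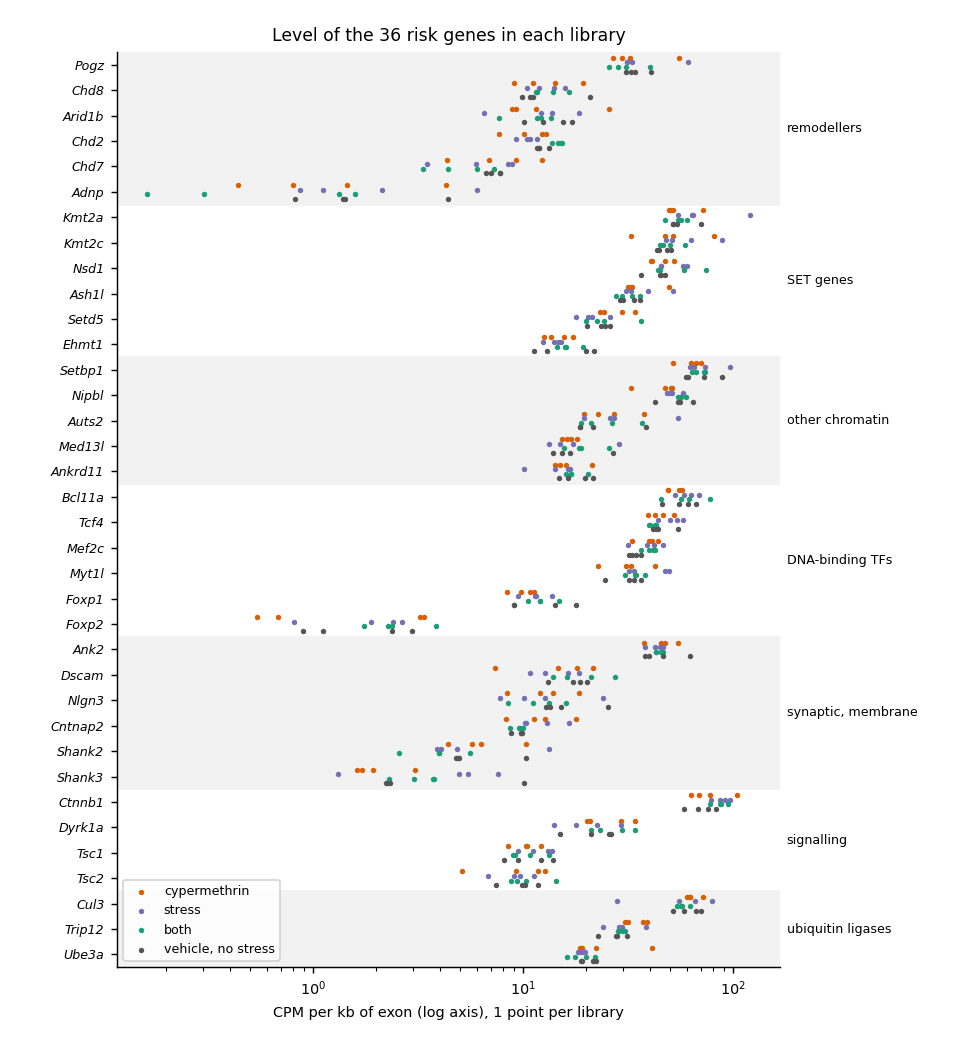
Level of each risk gene in CPM per kb of exon (horizontal log axis), 1 point per library, coloured by group and ordered by role and level. Ctnnb1, Setbp1 and Kmt2a stand highest and Adnp, Foxp2 and Shank3 lowest, and the colours are mixed within nearly every gene.

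Among the chromatin remodellers and their partners, Pogz, a zinc-finger protein that binds heterochromatin proteins, had the highest level per length, 35.2 ± 9.77 CPM per kb (SD, n = 16). Chd8, Arid1b and Chd2 followed with 13.2 ± 3.37, 12.9 ± 4.68 and 12.0 ± 2.11 CPM per kb, which do not differ beyond their spread. Chd8 and Chd2 encode chromodomain remodelling enzymes and Arid1b a subunit of the SWI/SNF complex. Chd7, a remodeller known for its loss in CHARGE syndrome, had 6.84 ± 2.32 CPM per kb. Per kb, Chd8 was above Chd7 in 14 of 16 libraries by the union of exons and in 16 of 16 by the longest transcript, with a median ratio of 1.89 by the union.

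Adnp, a homeobox zinc-finger gene among the most often mutated in autism, was lowest of all at 1.78 ± 1.67 CPM per kb, with 3 counts in its lowest library. Of its exon bases, 82.1% are shared with Gm20716, an annotated protein-coding model on the same strand that is also in the table, and Gm20716 had no count in any of the 16 libraries. How the authors counted reads on shared exons is not given in the sources used here, and its part in the low count was not tested.

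The SET-domain genes were high. Kmt2a and Kmt2c, which encode methyltransferases of histone H3 lysine 4 at promoters and enhancers, had 60.7 ± 17.4 and 53.0 ± 14.0 CPM per kb, within each other's spread. Per kb, Kmt2c was above Kmt2a in 1 of 16 libraries by the union of exons but in 13 of 16 by the longest transcript, so their order depends on the length used. Nsd1, a lysine 36 methyltransferase whose loss causes Sotos syndrome in humans, had 49.0 ± 9.43 CPM per kb, Ash1l, which writes the same residue, 34.7 ± 6.84, and Setd5, a SET-domain protein, 24.6 ± 5.06. Ehmt1, a methyltransferase of lysine 9, was lowest with 15.4 ± 2.91 CPM per kb.

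Of the other chromatin regulators, Setbp1, which binds the SET protein, had 69.1 ± 10.8 CPM per kb and Nipbl, the loader of cohesin, 52.0 ± 7.33. Auts2, a partner of Polycomb complexes, had 27.1 ± 10.1, Med13l, of the kinase module of Mediator, 18.2 ± 4.64, and Ankrd11, which binds histone deacetylases, 16.6 ± 2.94 CPM per kb. Auts2 was uneven across embryos: it ran from 426 to 1255 CPM, a range of 2.94-fold.

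The DNA-binding factors divided into a high and a low set. Bcl11a, a zinc-finger repressor, had 57.5 ± 8.63 CPM per kb, Tcf4, a basic helix-loop-helix E-protein, 45.8 ± 5.94, Mef2c, a MADS-box factor, 38.2 ± 4.52, and Myt1l, which represses genes of other lineages in neurons, 34.7 ± 7.09. The forkhead genes were lower, with 11.6 ± 2.5 CPM per kb for Foxp1 and 2.07 ± 1.03 for Foxp2, whose loss impairs speech in humans. Foxp1 was above Foxp2 per kb in 16 of 16 libraries, with a median ratio of 5.06. Tcf4 and Mef2c were also among the steadiest members, with ranges of 1.48-fold and 1.46-fold over the 16 libraries.

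Of the synaptic and membrane genes, Ank2, which encodes the spectrin adaptor ankyrin-B, had 45.0 ± 6.34 CPM per kb. Dscam, an immunoglobulin adhesion molecule, Nlgn3, a postsynaptic neuroligin on the X chromosome, and Cntnap2 had 16.7 ± 4.75, 13.9 ± 5.09 and 11.0 ± 2.72 CPM per kb. The postsynaptic scaffold genes were near the lower end, with 5.86 ± 2.89 CPM per kb for Shank2 and 3.58 ± 2.39 for Shank3. Nlgn3 had 223 CPM in the stress library that went against its male label and 71.7 to 236 CPM in the other 15.

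Ctnnb1, which encodes beta-catenin of adherens junctions and Wnt signalling, had the highest level of all 36 per kb of exon union, 81.0 ± 12.7 CPM per kb, while by the longest transcript Tcf4 (146 CPM per kb) and Bcl11a (127) were above it (116). Dyrk1a, a dosage-sensitive kinase on the Down syndrome chromosome in humans, had 23.9 ± 6.09 CPM per kb. Tsc1 and Tsc2, partners that restrain mTOR complex signalling, had 10.9 ± 1.93 and 9.84 ± 2.28 CPM per kb, with Tsc1 above Tsc2 in 10 of 16 libraries. Of the ubiquitin ligase genes, Cul3, the scaffold of a large family of ligases, had 59.9 ± 11.2 CPM per kb, and the HECT ligase genes Trip12 and Ube3a had 30.3 ± 4.56 and 20.9 ± 5.69.

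Several counts are uncertain because strand use in counting is not given in the sources used here. For 11 members the annotation puts a further gene of the table within the same span, and 6 of the 11 share exon bases with it. Chd2 shares 18.4% of its exon bases with the non-coding 1810026B05Rik on its own strand. On the opposite strand, Ctnnb1 shares 14.6% with Ulk4, Ube3a 8.74% with Snhg14, the transcript that silences the paternal Ube3a copy in mature neurons, Tsc2 7.20% with Pkd1 and Ash1l 2.37% with Dap3. Snhg14 itself had 123 to 406 CPM over the libraries, beside 331 to 850 CPM for Ube3a.

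The SD of log2 CPM within groups had a median of 0.30 over the members and 0.75 over all tested genes. Spread falls with level, and 32 of 36 members had a mean CPM of 67.7 or more, where the medians were 0.28 for members and 0.37 for all 3306 genes. In the band of 26.3 to 67.7 CPM the 3 members varied more, with a median of 0.80 beside 0.61 for all genes. Tcf4 (0.15), Mef2c (0.16), Trip12 (0.19) and Chd2 (0.19) varied least. Adnp (1.20), Foxp2 (0.91), Shank3 (0.80) and Shank2 (0.60) varied most, and these 4 also had the lowest CPM of the list.

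**Figure D2:**
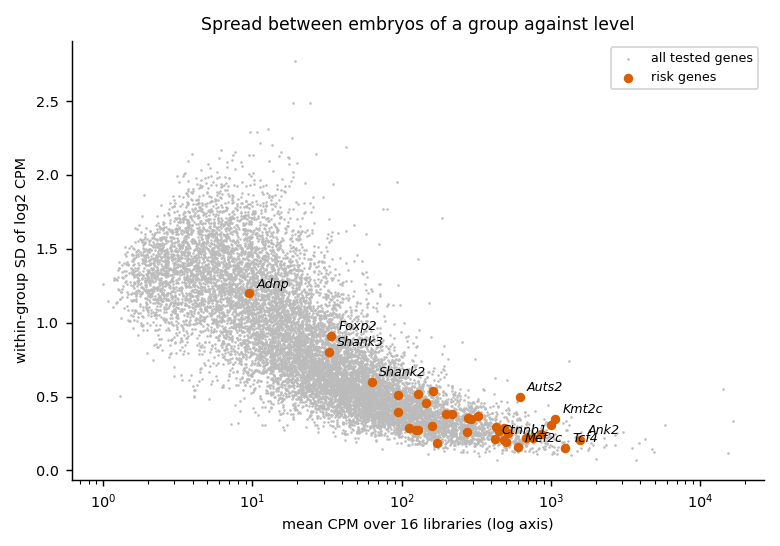
Within-group SD of log2 CPM against mean CPM over 16 libraries (log axis) for all tested genes in grey and the 36 risk genes in orange. Most risk genes sit at the lower right, at high level and low spread, while Adnp, Foxp2, Shank3 and Shank2 sit higher and to the left.

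The highest values clustered in a few libraries. Of the 36 members, 9 (25%) had their highest CPM in stress replicate 1 and 8 (22.2%) in vehicle replicate 1, where 15.7% and 7.89% of all tested genes peaked. Another 5 members peaked in replicate 1 of both exposures (13.9%, beside 10% of all genes), 4 in stress replicate 3 (11.1%, beside 9.44%), 3 in cypermethrin replicate 4 (8.33%, beside 12.4%) and 2 in cypermethrin replicate 3 (5.56%, beside 15.3%). These 6 libraries had the fewest genes with a count, 12153 to 13868. The 4 libraries with the most detected genes (15741 to 16536) held 2 peaks between them. All tested genes peaked seldom there too, 0.401% to 1.6% of them in each of those 4 libraries. The part of library complexity in the members' levels was not tested. Stress replicate 1 was uneven over the whole table, with 26.3% of all tested genes at their lowest there.

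**Figure D3:**
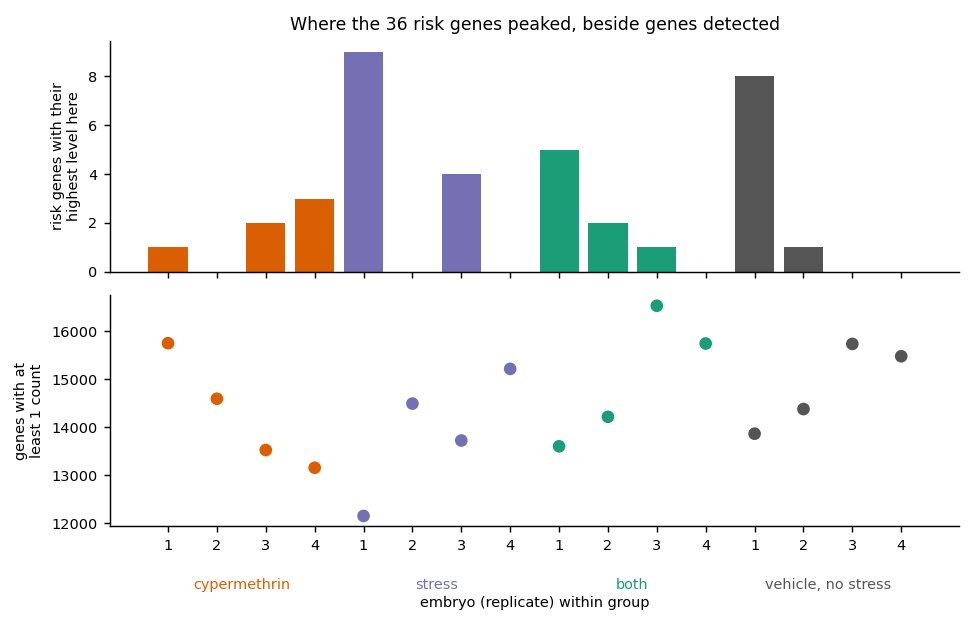
Number of risk genes with their highest CPM in each library (upper panel) and genes with at least 1 count in that library (lower panel, axis not from 0), by group and replicate. Stress replicate 1 and vehicle replicate 1 hold 9 and 8 of the 36 peaks.

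Cypermethrin alone was set against vehicle to ask what the insecticide did to these genes. No member changed past the threshold, a Benjamini-Hochberg adjusted p under 0.05 over all tested genes by edgeR's quasi-likelihood test. Fitted values were higher for 18 members and lower for 18, beside 52.4% of all tested genes fitted higher. The median log2 difference was 0.01 over the members and 0.03 over all tested genes. The adjusted call took 0 of 36 members and 0% of all genes, and DESeq2 and limma voom called 0 genes as well. At an unadjusted p under 0.05 stood 1 member, beside 3.71% of all genes (491 genes), and with DESeq2 and limma voom it was also 1 each. For 32 of 36 members the 95% interval lay within a 2-fold change either way, beside 26.6% of all genes, whose median SE was 0.54, beside 0.22 over the members. The groups overlapped for every member, while they did not for 2.52% of all genes. The summed glutamatergic markers ran from 5472 to 6542 CPM with cypermethrin, against 4683 to 5507 CPM with vehicle, with 9 of 11 fitted higher and a median log2 difference of 0.26. At an unadjusted p under 0.05, 1 of these 11 was higher and 1 lower, beside 3.71% of all genes. Tbr1 of that list had 0.35 ± 0.15. Of the 15 interneuron genes 8 rose and 7 fell in the fit (median 0.04), and Gad2 among them had 0.55 ± 0.25. Lists of other cell types moved as well. Of the pericyte and meningeal fibroblast genes 9 rose and 1 fell (median 0.20), and of the microglia and macrophage genes 6 rose and 2 fell (median 0.84). Of the Cajal-Retzius genes 3 rose and 5 fell (median -0.06). In these last 3 lists 0 genes stood at an unadjusted p under 0.05 by edgeR's test. The part of these markers in the members' values was not tested.

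The member with the smallest p was Trip12, a ubiquitin ligase of the HECT family on chromosome 1 from 84721189 to 84840516. It had 507, 524, 645 and 618 CPM with cypermethrin, against 520, 375, 460 and 465 CPM with vehicle. Of the cypermethrin embryos 3 lay above every vehicle embryo, and the groups overlapped. The log2 difference was 0.33 ± 0.16 (SE, n = 4 per group, edgeR adjusted p = 0.999, unadjusted p = 0.0488), a ratio of 1.26 with a 95% interval of 1.00 to 1.59. Within library codes A and B it was 0.18 and 0.37. The other ubiquitin ligase genes had 0.31 ± 0.20 (Ube3a) and 0.05 (Cul3), the last at -0.02 with upper-quartile scaling. The value of Ube3a rested on cypermethrin replicate 4, with 850 CPM beside 383 to 458 CPM in the rest of its group, and was -0.03 without it.

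Shank3, on chromosome 15 from 89499623 to 89560261, had the largest difference. Its levels were 28.0, 15.7, 14.9 and 17.7 CPM with cypermethrin, against 92.3, 21.4, 20.7 and 20.3 CPM with vehicle. Cypermethrin replicates 2, 3 and 4 lay below all vehicle embryos, but the vehicle mean rested on replicate 1. The log2 difference was -1.01 ± 0.53 (SE, edgeR adjusted p = 0.999), and -0.12 without vehicle replicate 1. Nipbl had a log2 difference of -0.26 ± 0.16, which was -0.12 without cypermethrin replicate 4 and -0.17 without vehicle replicate 2.

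Stress alone was set against vehicle to ask what restraint did. No member changed past the threshold. Fitted values were higher for 20 members and lower for 16, beside 50.8% of all tested genes fitted higher. The median log2 difference was 0.07 over the members and 0.01 over all tested genes. The members' median was -0.07 without stress replicate 1 and -0.03 with upper-quartile scaling, which set the median of all genes to -0.06. The adjusted call took 0 members and 0% of all genes by edgeR, and 0 genes by DESeq2 and limma voom. At an unadjusted p under 0.05 stood 2 members, beside 5.08% of all genes (672 genes), and 0 members by DESeq2 and by limma voom. The intervals of 32 members lay within a 2-fold change, beside 26.1% of all genes.

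The 2 members were the H3 lysine 4 methyltransferase genes. Kmt2a, on chromosome 9 from 44803355 to 44881296, had 1998, 1074, 1061 and 913 CPM with stress, against 1171, 861, 902 and 858 CPM with vehicle. Stress embryos were above 3 of the 4 vehicle embryos, and the highest value was in replicate 1 of the stress group. The log2 difference was 0.41 ± 0.19 (SE, n = 4 per group, edgeR adjusted p = 0.965, unadjusted p = 0.0402), but 0.10 without that replicate. Kmt2c, on chromosome 5 from 25271798 to 25498783, had 1793, 1035, 1279 and 973 CPM with stress, against 899, 882, 975.5 and 1027 CPM with vehicle. Its groups overlapped through stress replicate 4. The log2 difference was 0.42 ± 0.20 (adjusted p = 0.965 by edgeR), and 0.21 without stress replicate 1. Within the library codes, Kmt2a was at 0.60 in A, which holds this replicate, and 0.17 in B, and Kmt2c at 0.67 in A and 0.17 in B.

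The neuronal factor gene Myt1l had a log2 difference of 0.36 ± 0.19 (0.25 without stress replicate 1), and Ctnnb1 had 0.31 ± 0.17, with 503, 451, 408 and 475 CPM under stress, against 302, 353, 429 and 392 CPM with vehicle. Stress embryos of Ctnnb1 lay above 3 of 4 vehicle embryos. Groups did not overlap for 2 members, beside 2.90% of all genes, and they are named here after their values were seen. Cntnap2 had 105, 106, 170 and 132 CPM with stress, against 100, 101, 90.1 and 99.6 CPM with vehicle, and Chd2 had 166.5, 153, 149 and 132 CPM with stress, against 169, 189, 169 and 166.5 CPM with vehicle, where the closest values differ only in later digits. Their log2 differences were 0.39 ± 0.25 (0.23 without stress replicate 3) and -0.21, and neither passed at an unadjusted p under 0.05. The listed markers of pericytes and meningeal fibroblasts had a median log2 difference of -0.44 in this comparison, with 8 of 10 fitted lower, and those of glutamatergic neurons had 0.25, with 7 of 11 fitted higher. Summed, the first list ran from 1378 to 2329 CPM with stress, against 1398 to 3630 CPM with vehicle, and the other from 4704 to 7574 CPM with stress, against 4683 to 5507 CPM with vehicle. Their part in the members' values was not tested.

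Both exposures together were set against vehicle. No member changed past the threshold. Fitted values were higher for 17 members and lower for 19, beside 50.3% of all tested genes fitted higher. The median log2 difference was -0.01 over the members and 0.0031 over all tested genes. The adjusted call took 0 members and 0% of all genes by edgeR, and DESeq2 and limma voom called 0. At an unadjusted p under 0.05 stood 1 member, beside 1.49% of all genes (197 genes), and 0 by DESeq2 and by limma voom. The intervals of 30 members lay within a 2-fold change, beside 28.5% of all genes.

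The member with the smallest p was Nsd1, on chromosome 13 from 55209782 to 55318325. It had 1299, 1014, 779 and 769 CPM with both exposures, against 638, 787, 830 and 789 CPM with vehicle. Replicates 1 and 2 of both exposures were above every vehicle embryo and the other 2 were not. The log2 difference was 0.34 ± 0.17 (SE, n = 4 per group, edgeR adjusted p = 1, unadjusted p = 0.0498), and 0.17 without replicate 1 of both exposures. It was 0.70 within library code A, which holds those 2 replicates, and -0.07 within code B.

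Chd2, on chromosome 7 from 73426638 to 73541830, was the lone member whose groups did not overlap here, beside 2.62% of all genes, and is named after its values were seen. It had 196, 217, 218 and 209 CPM with both exposures, against 169, 189, 169 and 166.5 CPM with vehicle. The log2 difference was 0.28 with a ratio of 1.21 in the mean, and it did not pass at an unadjusted p under 0.05. Ctnnb1 and Mef2c had 0.28 ± 0.17 and 0.24 ± 0.15, and Shank2 had -0.63 ± 0.41, which was -0.27 without vehicle replicate 1. Synaptic and membrane genes were fitted lower in 5 of 6 cases (4 of 6 by limma voom), and the exception was Dscam with 0.18, which was -0.02 without replicate 1 of both exposures and 0.07 without vehicle replicate 3.

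**Figure D4:**
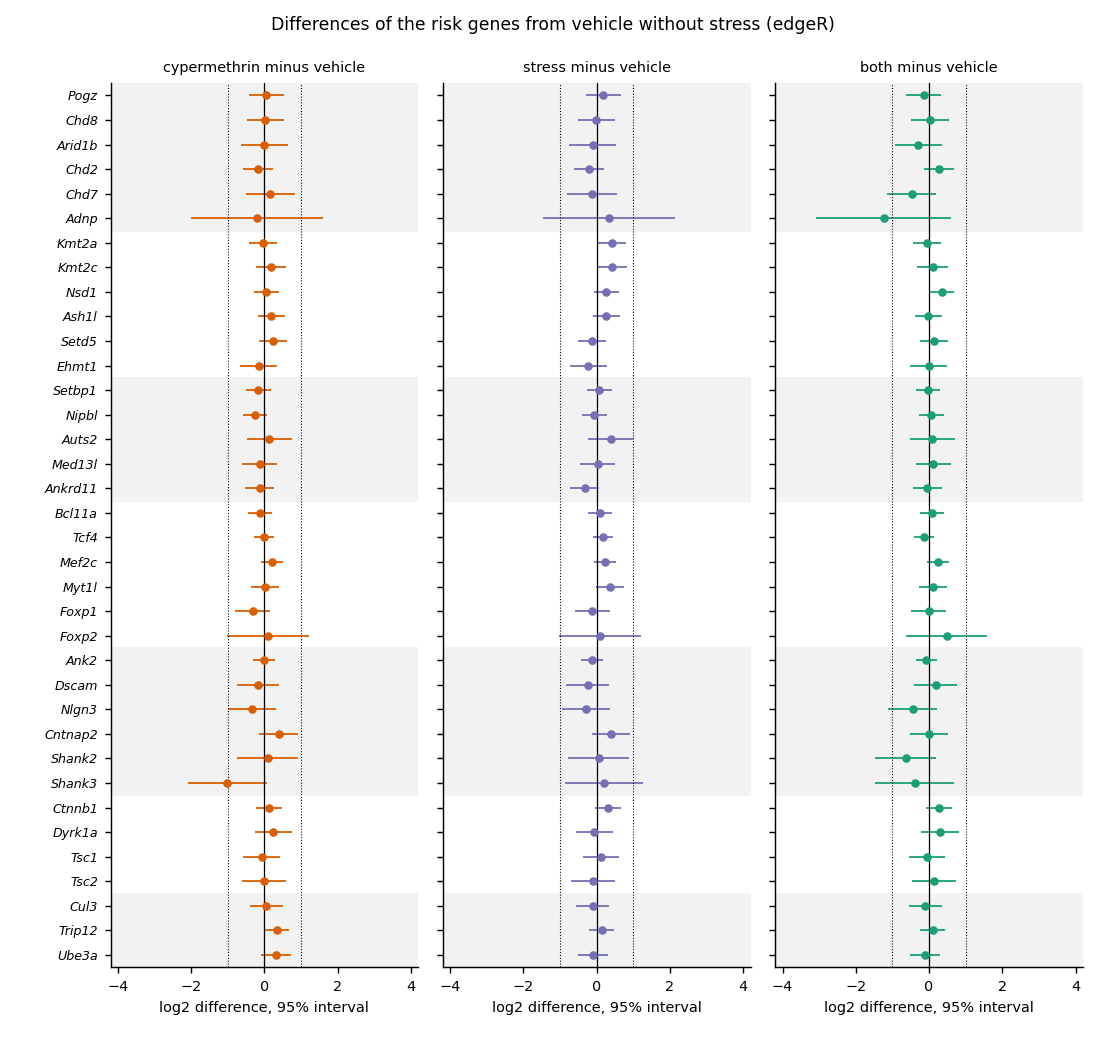
Log2 difference of each risk gene from vehicle without stress (point) with its 95% interval (line) by edgeR, for cypermethrin, stress and both exposures, with dotted lines at a 2-fold change. Most intervals lie between the dotted lines, and Adnp, Foxp2 and Shank3 have the widest.

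The interaction asked whether cypermethrin acted differently in stressed and in non-stressed dams. No member passed (0%, as for all genes, by edgeR, and 0 genes by DESeq2 and limma voom). At an unadjusted p under 0.05 stood 2 members, beside 4.70% of all genes (622 genes), and they were 2 by DESeq2 and by limma voom as well. Estimates were above 0 for 18 members, beside 47.4% of all tested genes. The median SE over the members was 0.32, beside 0.22 in each comparison with vehicle, and 19 of 36 intervals lay within a 2-fold change, beside 11.5% of all genes.

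Chd2 had the smallest p. Under stress it had 196, 217, 218 and 209 CPM with cypermethrin, against 166.5, 153, 149 and 132 CPM with vehicle. Without stress it had 175, 183, 110 and 143 CPM with cypermethrin, against 169, 189, 169 and 166.5 CPM with vehicle. All 4 libraries of both exposures were thus above the other 12, whose highest value was 189 CPM. How many of all tested genes show such a gap was not counted, so it is not read as particular to Chd2. The log2 interaction was 0.67 ± 0.28 (SE, n = 4 per group, edgeR adjusted p = 0.985, unadjusted p = 0.0264), with a 95% interval of 0.08 to 1.25. It was 0.53 to 0.76 with each library left out in turn, and 0.40 and 0.80 within the library codes.

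Cntnap2 ran the other way. Under stress it had 98.2, 89.0, 98.9 and 103 CPM with cypermethrin, against 105, 106, 170 and 132 CPM with vehicle, and without stress it had 182, 115, 130 and 84.5 CPM with cypermethrin, against 100, 101, 90.1 and 99.6 CPM with vehicle. Embryos with both exposures were all below those with stress alone, while 3 of 4 cypermethrin embryos were above all vehicle embryos. The share of all tested genes with such a gap was not counted here either. The log2 interaction was -0.79 ± 0.36 (adjusted p = 0.985 by edgeR), -0.57 without cypermethrin replicate 1 and -1.03 and -0.80 within the library codes. The groups with 1 exposure also spread more, with SDs of 40.8 and 30.4 CPM for cypermethrin and stress alone, beside 5.8 CPM with both and 5.3 CPM with vehicle (n = 4 each). Ash1l had an interaction of -0.48 ± 0.25 and Kmt2c of -0.51 ± 0.29, which were -0.31 and -0.25 without cypermethrin replicate 4. Without stress replicate 3 the value of Ash1l was also -0.31, and without stress replicate 1 that of Kmt2c was -0.30.

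**Figure D5:**
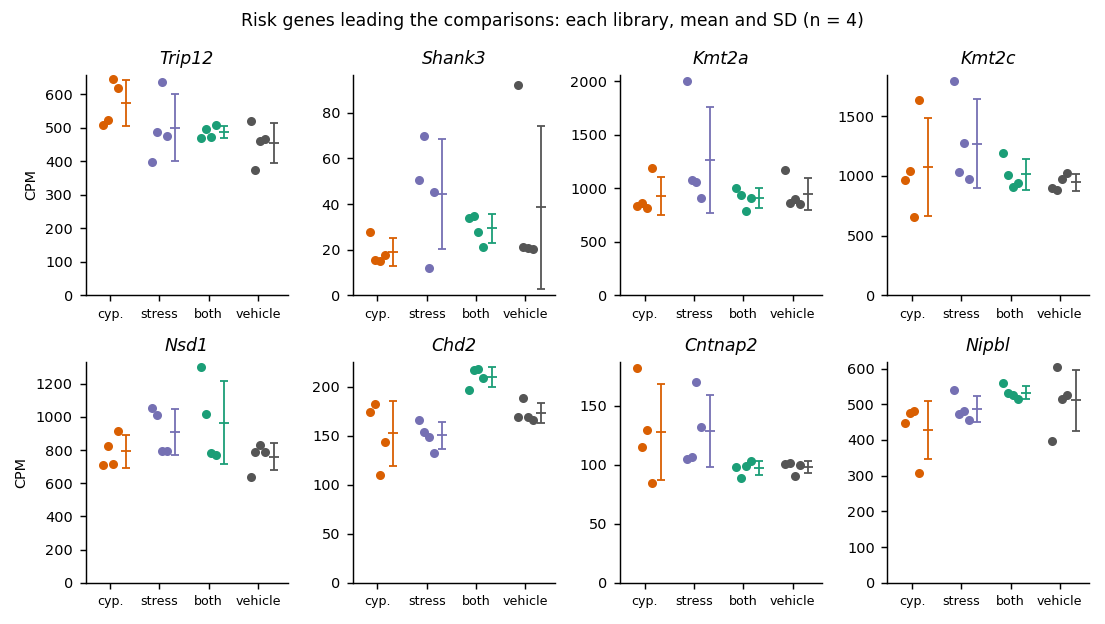
CPM of 8 risk genes that lead the comparisons, 1 point per library with the group mean and SD beside it (n = 4), for cypermethrin, stress, both and vehicle. Chd2 is above all other libraries in the 4 with both exposures, while Shank3 is highest in vehicle replicate 1 and Kmt2a and Kmt2c in stress replicate 1. How many of all tested genes show a gap like that of Chd2 was not counted.

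Averaged over stress, cypermethrin was compared with vehicle in 8 libraries each. Fitted values were higher for 16 members and lower for 20, beside 51.1% of all tested genes fitted higher. The median log2 difference was -0.04 over the members and 0.01 over all tested genes. No member passed (0% of all genes by edgeR and 0 genes by limma voom, while DESeq2 called 1 gene of the whole table and 0 of 36 members). At an unadjusted p under 0.05 stood 1 member, beside 4.59% of all genes (607 genes), and it was 1 by DESeq2 and limma voom too. The intervals of 33 members lay within a 2-fold change, beside 45.6% of all genes. Shank3 had a lowest, median and highest level of 14.9, 24.4 and 34.6 CPM with cypermethrin, against 12.1, 33.3 and 92.3 CPM with vehicle. The groups overlapped, and the log2 difference was -0.80 ± 0.37 (SE, n = 8 per group, edgeR adjusted p = 0.981, unadjusted p = 0.0396), or -0.36 without vehicle replicate 1. Setd5 had 365, 444 and 670 CPM with cypermethrin, against 328, 410 and 475 CPM with vehicle, a log2 difference of 0.26 ± 0.13 that was 0.15 without replicate 1 of both exposures. Kmt2a had -0.25 ± 0.14, and -0.09 without stress replicate 1. Tcf4, the steadiest member, had -0.17 ± 0.09, with an interval of -0.36 to 0.02.

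Averaged over cypermethrin, stress was compared with no stress. Fitted values were higher for 20 members and lower for 16, beside 50% of all tested genes fitted higher. The median log2 difference was 0.02 over the members and -0.0005 over all tested genes. No member passed (0% of all genes by edgeR, and 0 genes by DESeq2 and limma voom). At an unadjusted p under 0.05 stood 1 member, beside 5.13% of all genes (679 genes), and it was 1 by DESeq2 and limma voom too. The intervals of 33 members lay within a 2-fold change, beside 45.7% of all genes. Nsd1 had a lowest, median and highest level of 769, 900.4 and 1299 CPM with stress, against 638, 788 and 917 CPM without. The groups overlapped, and the log2 difference was 0.27 ± 0.12 (SE, n = 8 per group, edgeR adjusted p = 0.960, unadjusted p = 0.0288), with 0.61 and -0.06 within the library codes. Ctnnb1 had 0.23 ± 0.12, Myt1l 0.23 ± 0.13 and Ube3a -0.26 ± 0.14, the last of which was -0.09 without cypermethrin replicate 4. All 6 DNA-binding factors were fitted higher with stress on this average, by 0.02 to 0.23, and 3 of 3 ubiquitin ligase genes were fitted lower, at -0.26 to -0.05. The counts were the same by 2 other scalings, DESeq2 and limma voom, which refit the same 16 libraries. These roles are given because their genes all went the same way. Of the remodellers and their partners 5 of 6 were fitted lower, and the other roles were mixed. With cypermethrin on average, 3 of 3 ubiquitin ligase genes were fitted higher. Whether genes of a role move together was not tested. None of these genes passed the adjusted test.

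Genes of the same pathways were read from 7 further lists, and none of their members was called in any of the 6 comparisons. Of 48 other autism and intellectual disability genes, 4 were higher and 1 lower with cypermethrin alone at an unadjusted p under 0.05, 1 and 1 with stress alone, and 1 and 1 with both. For these and the other lists, the share of all tested genes at that level was 3.71% with cypermethrin alone, 5.08% with stress alone and 1.49% with both. Nf1, a Ras regulator, had a log2 difference of 0.49 ± 0.18 with cypermethrin alone, and 0.28 without cypermethrin replicate 4. Of 18 COMPASS and lysine 4 enzymes, 2 were higher and 0 lower with stress alone, the demethylase genes Kdm6a (0.61 ± 0.28) and Kdm5c (0.58 ± 0.27). Both lie on the X chromosome. Stress replicate 1, which went against its male label, had 209 CPM of Kdm6a and 181 CPM of Kdm5c, while stress replicate 3 had 247 and 194 CPM. The log2 differences of Kdm6a and Kdm5c were 0.59 and 0.48 without stress replicate 1, and 0.49 and 0.44 without stress replicate 3. The part of embryo sex in them was not tested. Of 11 cohesin genes 1 was higher with cypermethrin alone, the release factor gene Wapl (0.58 ± 0.28), at 0.33 without cypermethrin replicate 3 and 0.38 without vehicle replicate 1. Of 20 SWI/SNF genes, 1 was lower with cypermethrin alone, Smarcd1 (-0.78 ± 0.32, but -0.27 without vehicle replicate 1), and 2 were higher and 1 lower with stress alone, among them Bcl7a with 0.74 ± 0.26 and Smarcb1 with -0.64 ± 0.29, which was -0.39 without vehicle replicate 1. The cohesin subunit gene Rad21 had -0.64 ± 0.24 with stress alone (-0.44 without stress replicate 1), the lone cohesin gene at that level. Of 18 genes of the beta-catenin pathway 1 was higher with stress alone, the kinase gene Gsk3b (0.35 ± 0.14), of 17 genes of the TSC and mTOR pathway 0 were at that level with any single or joint exposure, and of 20 postsynaptic partners 1 was, Nrxn2 with 2.22 ± 0.88 under stress alone. Nrxn2 had 1234 CPM in stress replicate 3, beside 79.0 to 101 CPM in the rest of that group, and the difference was 0.15 without it.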

How the data were processed

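RNA of laser-captured cells was made into libraries with the Trio RNAseq kit and deposited by the authors as 1 table of raw counts per gene for 16 libraries, with reads aligned by STAR 2.5 to mm10 per the submitters' processing notes. The labels do not state how reads were counted, on which annotation or strand, or with which filters. Both the totals of 2291283 to 4324129 counts and the spread between the 4 embryos of a group limit the precision. The fit put the coefficient of variation between embryos at 0.586 over all tested genes. The members and lists were chosen with earlier results of these data known. Counts were scaled by TMM, filtered with filterByExpr (minimum count 10) and fitted over all 16 libraries with edgeR 4.0.16 in R 4.3.3 (robust quasi-likelihood, 1 mean per group), with Benjamini-Hochberg adjustment over 13224 genes and a threshold of 0.05, a procedure tested on simulated data. Lengths came from GENCODE vM21. Within-group SDs used log2 CPM with a prior count of 2. Per comparison the 4 members with the smallest unadjusted p are named, and at most 2 genes per pathway list. Alternatives were RLE and upper-quartile scaling, no filter, DESeq2 1.42.0, limma voom 3.58.1, the library code as a term, each code alone, only the groups compared, another length, a prior count of 0.5, library totals and each library left out. Embryos came from separate litters, per the labels. For pathway genes and members outside the naming rule, leaving out each library was added after seeing the data.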

Additional observations from a re-analysis of the deposited data

Results flagged for a closer look

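In 15 of 144 combinations of gene and group, 1 embryo stood apart from the other 3 of its group by Dixon's criterion. With normally distributed values, chance meets it in about 1 group in 20. How often all tested genes met it was not counted, so the 15 are not read as particular to these genes. Cypermethrin replicate 4 was highest in its group for Arid1b (322.7 CPM, next 144.5), Ash1l (735.6 CPM, next 490.3), Kmt2a (1191 CPM, next 858.2) and Ube3a (849.6 CPM, next 457.6). Stress replicate 1, which went against its male label, was highest for Pogz (558.4 CPM, next 305.0), Kmt2a (1998 CPM, next 1074) and Shank2 (142.2 CPM, next 52.4). Vehicle replicate 1 was highest for Chd8 (343.8 CPM, next 184.7), Kmt2a (1171 CPM, next 901.8), Auts2 (878.4 CPM, next 489.5), Shank2 (111.4 CPM, next 53.3) and Shank3 (92.3 CPM, next 21.4). Vehicle replicate 2 was highest for Chd2 (188.8 CPM, next 169.1) and Adnp (23.5 CPM, next 7.57), and vehicle replicate 3 was lowest for Cntnap2 (90.1 CPM, next 99.6).

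For 3 members, all 4 embryos with an exposure lay on 1 side of the mean of embryos without it when dams also had the other exposure, and all 4 on the opposite side when they did not. That pattern is no test of the difference. How many of all tested genes show it was not counted, so it is not read as particular to these members. The values given are those of the interaction by edgeR's quasi-likelihood test. The effect of stress on Chd2 differed by 0.67 between cypermethrin and vehicle dams (log2, unadjusted p = 0.0264), that on Cntnap2 by -0.79 (unadjusted p = 0.0381), and the effect of cypermethrin on Nipbl by 0.38 between stressed and non-stressed dams (unadjusted p = 0.110). None passed after adjustment over all genes.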

How the results depend on the processing

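No paired analysis was run, because each embryo came from its own litter and the labels link no embryos across groups. The labels also carry no replicate numbers, and those used here follow the order of the deposited samples within each group. The 4 members per comparison with the smallest unadjusted p had 588 alternative values. Their adjusted p was never under 0.44, far from the threshold, so only their direction was informative. Many of these fits left out a library outside the groups compared. Direction was kept in 585 and reversed in 3. Ube3a with cypermethrin alone was -0.0266 without cypermethrin replicate 4 and reached 0.4287 without replicate 2. Nsd1 was -0.0658 with both exposures and -0.0571 with stress on average within code B. Outside these 588, Cul3 with cypermethrin alone and Dscam with both exposures also changed sign in some fits. The number of members at an unadjusted p under 0.05 moved as follows. With cypermethrin alone it was 0 rather than 1 with upper-quartile scaling, no filter, the code as a term, only the groups compared and within either code. With stress alone it was 0 rather than 2 with upper-quartile scaling, DESeq2, limma voom and within code B, 1 with the code as a term or only the groups compared, and 3 within code A. With both exposures it was 0 rather than 1 with RLE or upper-quartile scaling, DESeq2, limma voom, the code as a term and within code B, and 2 within code A. For the interaction it was 1 rather than 2 with no filter and 0 within either code. For cypermethrin on average it was 2 rather than 1 with upper-quartile scaling or no filter, 3 within code A and 0 within code B. For stress on average it was 0 rather than 1 with the code as a term or within code B, and 3 within code A. Leaving out 1 library gave 0 to 2 members with cypermethrin alone, 1 to 4 with stress alone, 0 to 1 with both, 1 to 4 for the interaction and 0 to 3 for each average. Without stress replicate 1 it was 1 with stress alone and 4 for the interaction. Over the whole table, 317 rather than 197 genes stood at that level with both exposures without this replicate. Genes called over the whole table were 0 in each comparison and 0 with any library left out, apart from 0 to 1 for cypermethrin on average, where DESeq2 called 1. Within code A, whose cypermethrin group is 1 library assumed to vary like the others, 2 genes were called with cypermethrin alone, 45 with stress alone, 13 with both, 9 for the interaction, 14 for cypermethrin on average and 7 for stress on average. The causes were not tested. Upper-quartile scaling moved the median of all genes in the interaction to 0.10, beside -0.04, and that of the members to 0.09, beside -0.02. The members' median level per kb stood at percentile 85.4 of all tested genes, at 89.1 with the longest transcript, 89.6 with no filter and 84.6 to 85.7 with a library left out, and their median within-group SD was 0.28 to 0.31 with a library left out. Depth limits Adnp most, with 3 counts in its lowest library.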

Other observations

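Bcl7a, a SWI/SNF subunit gene, had a log2 difference of 0.74 ± 0.26 with stress alone and -1.13 ± 0.37 in the interaction. These SEs come from edgeR's fit over all 16 libraries, with 4 embryos per group. Neither value was past edgeR's adjusted threshold. The Ras regulator gene Nf1 had a log2 interaction of -0.58 ± 0.26, and -0.38 without cypermethrin replicate 4. The translation repressor gene Eif4ebp2 had a log2 interaction of -0.85 ± 0.34.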
